A study of Mus musculus with 10 samples.

Results

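Of the 10 mammary libraries of this series, 3 carried the RNA of mature lymphocytes at levels far above the other 7, and they are compared here with those 7. The libraries were chosen by a measured value: raw CPM, the reads on a gene scaled only by the reads of the library that were counted on genes, was above 50 for Ighd in T1234, T1334 and T2334. Ighd is the constant region gene of IgD, the receptor that mature naive B cells carry beside IgM. Its raw CPM was 124 in T1234, 283 in T1334 and 981 in T2334, and between 0.751 and 1.77 in the other 7, so the 2 libraries next to the threshold were T1224 at 1.77 and T1234 at 124. Widest gaps between libraries in Lck, a kinase of the T cell receptor, and in Glycam1, the sulphated mucin of high endothelial venules, gave the same 3 libraries. They are called Ighd-high and the 7 others Ighd-low. Since every gene count belongs to the measurement that made the split, differences between the classes are given as descriptions, with a standard error and without a test.

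The mice were virgin C57BL/6 females killed on PND 130. As adults 5 of them had received 1 mg folic acid per kg of diet (CFA) and 5 had received 5 mg per kg (HFA) for 4 weeks, and all then had 4 weeks on maintenance diet. Each library came from the right thoracic mammary fat pad of 1 mouse, taken whole and frozen. T1234 and T1334 were CFA libraries and T2334 was an HFA library. The third digit of the title is 3 in all of them and in the Ighd-low library T2234, and the labels do not say what the digits stand for. The tissue given for every sample is mammary gland, with no word of a lymph node.

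A lymph node is a capsule of B cell follicles and T cell areas held by stromal cells. Naive lymphocytes enter it from the blood through high endothelial venules, whose sugar-coated mucins slow the passing cells, and chemokines then sort them, Cxcl13 into follicles and Ccl19 and Ccl21 into the T cell area. Nodes lie embedded in the fat of several mouse mammary pads, beside a gland of luminal and basal epithelium and, at the thoracic site, beside the muscle of the body wall.

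Ighd, which defines the split, and Lck and Glycam1, which gave the same libraries, lie on different chromosomes. In GRCm38, Ighd is at chr12:113406604-113416324 on the minus strand, Lck at chr4:129548344-129573641 on the minus strand and Glycam1 at chr15:103562759-103565081 on the minus strand. The 250 bases before a RefSeq start are shown for Glycam1 and Lck, which mark the split, and for Cxcl13 and Madcam1, which belong to the follicle and the venule. They are written 5′ to 3′ on the strand of the gene and lie at chr15:103565082-103565331, chr4:129573642-129573891, chr5:95956689-95956938 and chr10:79664309-79664558, with 0 bases in annotated exons of that strand. Lck has another RefSeq start downstream, whose window overlaps an annotated exon by 19 bases and is not shown. Capitals mark TATAAA in Cxcl13, which begins 46 bases before the start, and, in Madcam1, 10 bases that begin 70 bases before the start and read on the other strand as the NF-kB motif searched for.
Glycam1: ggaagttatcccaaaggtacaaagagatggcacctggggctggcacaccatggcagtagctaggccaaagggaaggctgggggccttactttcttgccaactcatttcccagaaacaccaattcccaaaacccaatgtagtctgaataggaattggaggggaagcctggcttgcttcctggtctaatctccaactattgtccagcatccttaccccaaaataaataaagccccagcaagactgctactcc
Lck: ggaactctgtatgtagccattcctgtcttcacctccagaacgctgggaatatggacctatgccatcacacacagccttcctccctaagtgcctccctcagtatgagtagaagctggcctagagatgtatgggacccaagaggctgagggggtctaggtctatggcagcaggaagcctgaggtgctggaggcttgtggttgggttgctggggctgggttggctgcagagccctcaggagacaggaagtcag
Cxcl13: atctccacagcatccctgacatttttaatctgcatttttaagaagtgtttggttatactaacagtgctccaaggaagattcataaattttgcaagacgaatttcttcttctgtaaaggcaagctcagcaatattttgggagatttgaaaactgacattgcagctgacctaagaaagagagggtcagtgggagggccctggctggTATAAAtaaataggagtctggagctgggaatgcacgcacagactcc
Madcam1: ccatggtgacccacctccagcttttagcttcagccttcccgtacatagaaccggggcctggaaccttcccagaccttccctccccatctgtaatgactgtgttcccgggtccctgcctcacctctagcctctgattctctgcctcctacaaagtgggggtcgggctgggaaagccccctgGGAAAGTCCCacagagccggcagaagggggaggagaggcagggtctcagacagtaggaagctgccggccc
Of 13 short motifs searched on both strands, the ones given here were picked after the search. The NF-kB motif, in either direction, was in 0.14% of the 32851 windows of this length, and in windows of 4 of the 21 genes of the homing list that RefSeq windows matched, Ltb, Madcam1, Nfkb2 and Pglyrp1. TATAAA was in 12.4% of all windows and in those of 7 of the 21. The octamer ATGCAAAT, the motif of immunoglobulin promoters, was in 1.6% of all windows and in those of Blnk and Vpreb3 among 20 matched genes of the B cell list. A match describes letters in a window and is not a binding site.

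Levels below are TMM CPM, the CPM after TMM scaling of the library, and differences are log2, Ighd-high minus Ighd-low, from edgeR's fit with diet as a term, each with its standard error (SE). A gene was counted as higher or lower when the 3 and the 7 libraries did not overlap and the log2 difference was at least 1. In that sense 1187 of 16951 genes other than Ighd were higher, 7% of those fitted, and 127 were lower, 0.749%. Over all of these genes the median difference was -0.05, with the 5th percentile at -1.16 and the 95th at 2.02. The 1187 genes took 3.73% of the counted reads in T1234, 4.62% in T1334 and 11.96% in T2334, against 0.924% to 1.98% in the Ighd-low libraries. A gene could pass the filter on low counts through 3 libraries alone, so genes near 0 in the 7 others were fitted because of the Ighd-high libraries, and their counts support nothing on their own. T2334 held the largest share, and without it 788 genes were higher, 778 of them among the 1187, and 47 were lower, 37 of them among the 127.

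The depths of the classes overlapped. Reads on genes ran from 7711010 to 14336914 in the Ighd-high and from 7672199 to 14829291 in the Ighd-low libraries, with a two-sided exact permutation p of 0.95 for the means (n = 3 and 7). Reads on no feature made up 5.09% ± 0.370 (SD, n = 3) of all entries in the count files against 4.24% ± 0.560 (SD, n = 7), with an exact permutation p of 0.05, or 0.2 after Benjamini-Hochberg adjustment over the 4 library measures tested. Reads with more than 1 alignment made up 31.6% against 30.3% and ambiguous reads 3.92% against 3.98%, with exact permutation p-values of 0.25 and 0.783, adjusted 0.5 and 0.95. Of the CFA libraries 2 of 5 were Ighd-high, and of the HFA libraries 1 of 5 (Fisher's exact test, two-sided, p = 1). With 3 Ighd-high libraries the smallest p that test could give was 0.167.

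**Figure D1:**
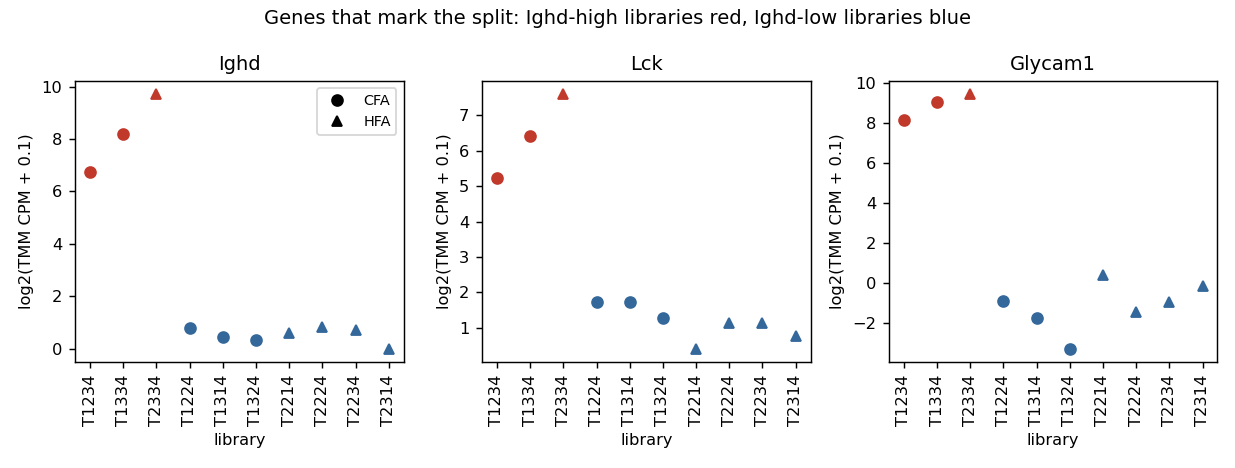
Level of Ighd, Lck and Glycam1 in each library, as log2 of TMM CPM plus 0.1, with circles for CFA and triangles for HFA libraries. The 3 Ighd-high libraries (red) lie above all 7 Ighd-low libraries (blue) in each panel, and T2334 is the highest in each.

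Lck stood at 37.6 TMM CPM in T1234, 86.1 in T1334 and 196 in T2334, and its lowest, median and highest values in the Ighd-low libraries were 1.21, 2.10 and 3.18. Its log2 difference was 5.51 (SE 0.44). Glycam1 stood at 280, 525 and 693 TMM CPM in the same 3 libraries, and the Ighd-low libraries held 0, 0.42 and 1.21 as lowest, median and highest. With a log2 difference of 10.39 (SE 0.47), Glycam1 had the widest gap of any listed gene named here. Its levels in the 3 libraries were closer to each other than those of Ighd, as the ratios given further on show.

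Every B cell gene in the files followed the split. Ighd itself was placed by the rule. The 26 other members in the files were all above the 7 other libraries in each of the 3. They had a median log2 difference of 6.4, ranging from 2.96 for Blnk to 8.79 for Fcmr. Their median was 5.42 without T2334, with 26 of 26 still counted as higher. It was 4.49 over the 13 genes with a CPM above 1 in at least 5 libraries, since the others were fitted through the Ighd-high libraries. Bulk RNA cannot tell more cells of a type from more RNA per cell, here or in the lists that follow. The summed level of the list, Ighd included, was 1097 TMM CPM in T1234, 2787 in T1334 and 7386 in T2334. It was 61.3 to 163 in the Ighd-low libraries. Ighd alone made up 107, 293 and 846 TMM CPM of the sums in T1234, T1334 and T2334.

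Among the parts of the B cell receptor, Cd79a and Cd79b, the signalling chains that hold the immunoglobulin at the membrane, differed by 8.35 (SE 0.36) and 7.23 (SE 0.46). Cd79a was 59.5, 152 and 410 TMM CPM in T1234, T1334 and T2334, and 0.42 to 0.88 in the Ighd-low libraries. Ighm, the IgM heavy chain gene, was 236, 592 and 1420 TMM CPM in the 3 libraries. Unlike the chains around it, Ighm was well measured in every Ighd-low library too, from 33.6 to 96.8, so these libraries were low in B cell RNA but not free of it.

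Of surface proteins, Ms4a1, which encodes CD20, was 59.1, 141 and 447 TMM CPM against 0.28 to 1.04. Fcer2a, the low-affinity IgE receptor CD23 of follicular B cells, was 39.6, 104 and 241 against 0.141 to 0.981. Cr2, the complement receptor CD21 of B cells and follicular dendritic cells, differed by 7.76 (SE 0.65), and Cd22, an inhibitory lectin, by 7.78 (SE 0.53). The receptor of the survival factor BAFF, Tnfrsf13c, differed by 7.80 (SE 0.47). In all of these genes the order was T1234, T1334, T2334, and no Ighd-low library came near the lowest of them.

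The regulators of B cell identity followed. Pax5, the factor that commits cells to the B lineage, was 35.2, 99.1 and 275 TMM CPM against 0.291 to 0.706. Pou2af1, the coactivator that binds octamer factors, differed by 6.93 (SE 0.51), and Spib, an ETS factor, by 5.89 (SE 1.01). Spib was uneven among the Ighd-low libraries, at 9.41 in T1314, 4.95 in T1224 and at most 0.701 in the other 5. Btk and Blnk, the kinase and the adaptor downstream of the receptor, which myeloid cells also use, differed less, by 3.31 (SE 0.52) and 2.96 (SE 0.43).

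T cell genes were higher in the same libraries. Of the 32 members, 31 were above the other 7 libraries, with a median log2 difference of 5.14 over the 32, from 0.74 for Prkcq to 7.61 for Lef1. Without T2334 the median was 4.30 and 30 of 32 were counted. Over the 22 genes with a CPM above 1 in at least 5 libraries it was 4.92, above the 4.49 of the B cell list, so the order of the lists turned with that filter. The list summed to 714, 1469 and 3181 TMM CPM in T1234, T1334 and T2334 and to 106 to 211 in the others.

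The CD3 chains, which carry the signal of the T cell receptor, differed by 5.24 (SE 0.45) for Cd3e, 5.72 (SE 0.41) for Cd3d and 5.62 (SE 0.45) for Cd3g. Cd4, the co-receptor of helper cells, was 25.3, 61.3 and 133 TMM CPM against 1.06 to 4.88, and Cd8a, the co-receptor of cytotoxic cells, was 31.0, 80.7 and 178 against 0.56 to 1.82. The ratio of Cd8a to Cd4 counts was 1.23, 1.32 and 1.34 in the 3 libraries, and ran from 0.235 to 1.04 in the Ighd-low libraries, where both genes had few reads. Zap70 and Lat, the kinase and the scaffold next to Lck in the pathway, differed by 4.96 (SE 0.34) and 5.59 (SE 0.41). Tcf7 and Lef1, HMG factors of naive T cells, differed by 4.44 (SE 0.57) and 7.61 (SE 0.55), and Il7r, the interleukin 7 receptor chain, by 4.54 (SE 0.43). Foxp3, the factor of regulatory T cells, was low throughout, at 2.79, 5.36 and 12.03 TMM CPM against 0 to 0.52.

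The smallest differences in the list were those of Thy1, which was counted as higher, and Prkcq, which was not counted. Whether other cells of the pad gave part of their RNA was not tested. Thy1, a surface protein of T cells, fibroblasts and nerve, differed by only 1.31 (SE 0.45), with T1234 at 130, T1334 at 137 and T2334 at 217 TMM CPM and T1314, an Ighd-low library, at 122. Prkcq, a protein kinase C of T cells and skeletal muscle, was 22.7, 83.7 and 78.1 in the 3 libraries and 21.4 to 63.0 in the others, so the groups overlapped.

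**Figure D2:**
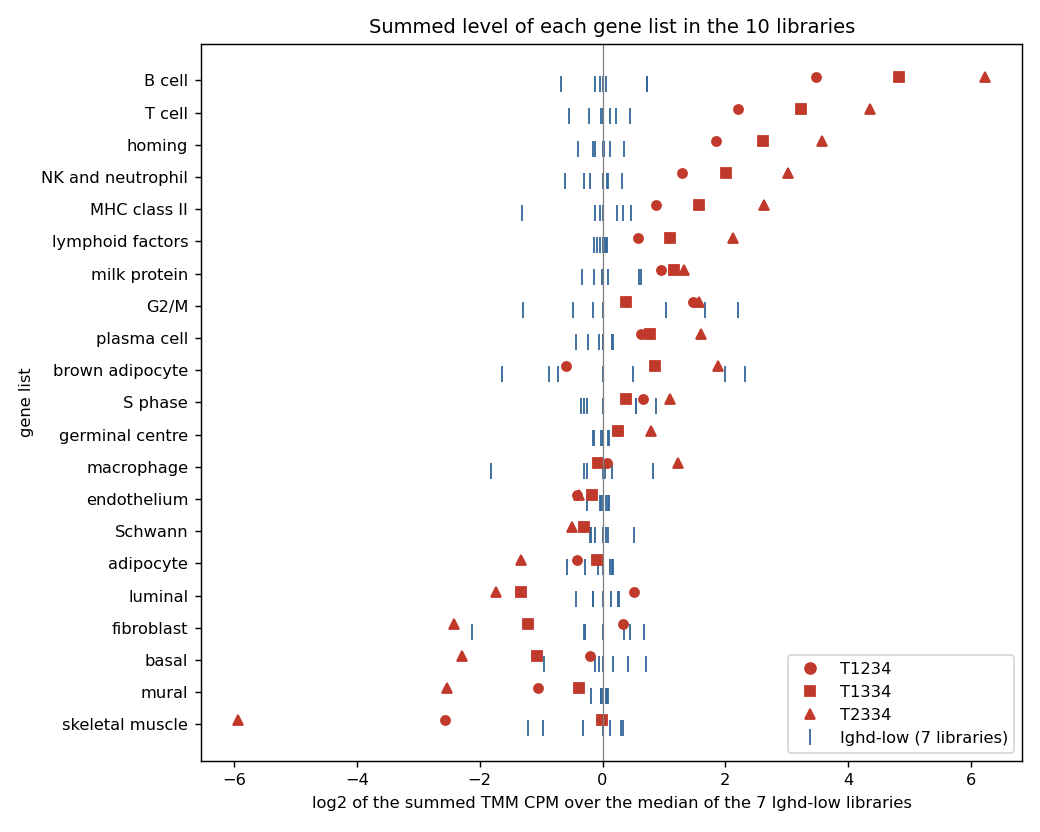
Summed TMM CPM of each gene list in each library, as log2 of the ratio to the median of the 7 Ighd-low libraries, with red symbols for the 3 Ighd-high libraries and blue bars for the 7 others. The B cell list includes Ighd, the gene of the rule. The B cell, T cell and homing lists lie far to the right in all 3 Ighd-high libraries. Skeletal muscle ranges from level with the others in T1334 to far below them in T2334.

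The homing list, which holds the genes of lymphocyte entry and of node stroma, was mixed. Of its 27 members 16 were above in all 3 libraries and none below, 23 passed the filter, and the median log2 difference of these was 2.90 (2.07 without T2334, with 13 of 23 counted). On the lymphocyte side, Ccr7, the receptor for the T cell area chemokines, was 28.5, 65.9 and 189 TMM CPM against 0.146 to 1.91. It differed by 6.48 (SE 0.54), and Ltb and Lta, the lymphotoxin chains that maintain the node, by 6.51 (SE 0.44) and 6.86 (SE 0.56).

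On the venule side, the enzymes that finish the sugars of the mucins were present at low counts. Chst4, the sulphotransferase of high endothelial cells, was 2.46, 4.45 and 5.23 TMM CPM, and at most 0.0707 in the Ighd-low libraries. Fut7, the fucosyltransferase of the same sugars, was 2.68, 3.77 and 6.62 against 0 to 0.795. Madcam1, the mucosal addressin of these venules and of follicular stroma, was 2.57, 2.42 and 5.90 against 0 to 2.32, so the lowest Ighd-high value lay just above the highest of the others. Chst2 and Gcnt1, broader enzymes of the same pathway, were not counted, with Chst2 at 8.49, 10.5 and 14.7 against 2.52 to 9.74.

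Of the chemokines, Cxcl13, which draws B cells into follicles, was 27.6, 66.1 and 227 TMM CPM. It was uneven among the Ighd-low libraries, at 10.2 in T2234, 6.07 in T2224 and 0 to 0.861 in the other 5. Ccl21a and Ccl21b were listed at 0 in all 10 libraries and Ccl19 was at most 0.963, in T2334. These genes have near-identical copies in the mouse genome, and reads with more than 1 alignment were left out of the counts, so their level is not known here. Ltbr, the lymphotoxin receptor of stroma and gland cells, did not follow its ligands, at 66.4, 53.1 and 31.5 TMM CPM against 57.6 to 70.5. Tnfsf11, which encodes RANKL and is also a product of hormone-responsive mammary epithelium, was 24.1, 17.7 and 12.5 in the 3 libraries. Among the Ighd-low libraries it was 18.2 in T1224, 4.57 in T1314 and 0 to 0.26 in the rest, so the groups overlapped through T1224. Relb and Nfkb2, which encode subunits of the alternative NF-kB pathway, differed by 1.65 (SE 0.26) and 1.30 (SE 0.26).

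Endothelium as a whole was not higher. None of the 15 genes of lymphatic and blood vessels was counted in either direction, with a median log2 difference of -0.29. Pecam1 was 141, 182 and 241 TMM CPM against 140 to 192. Cdh5, the cadherin of endothelial junctions, was 111, 134 and 106 against 149 to 172, below the other libraries in each case but by less than the minimum difference.

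Immunoglobulin genes divided by class. Of the 17 genes of plasma cells and secreted antibody, 7 were counted as higher, among 16 fitted with a median of 1.87. Igkc, the kappa light chain that all kappa B cells use, was 113, 292 and 713 TMM CPM against 6.62 to 29.2, and Iglc2, a lambda chain, differed by 6.30 (SE 0.77). The IgG1 gene Ighg1 was low but counted as higher, at 1.68, 1.81 and 4.57 TMM CPM against 0 to 0.33, a difference of 5.84 (SE 0.69). Ighg2b and Ighg3, also low, differed by 2.27 (SE 0.57) and 4.63 (SE 0.75), while Ighg2c overlapped. Mzb1, another member of the list, differed by 5.10 (SE 0.34). Igha, the IgA heavy chain, was 15.7, 21.3 and 4.09 in the Ighd-high and 4.48 to 41.1 in the Ighd-low libraries, with the highest value in T1324, an Ighd-low library. Jchain, which joins secreted IgA and IgM, was 9.05, 22.1 and 5.90 against 2.31 to 12.9. Both overlapped, as did the plasma cell regulators Xbp1, Prdm1 and Irf4.

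Among the 3 Ighd-high libraries the ratio of Ighm to Ighd counts, not corrected for gene length, was 2.22 in T1234, 2.02 in T1334 and 1.68 in T2334. Igkc over Ighd was 1.06, 0.994 and 0.843. These ratios are not set against the Ighd-low libraries, since Ighd defined the classes and would fix the direction.

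Genes of the germinal centre, where B cells mutate their receptors, were mixed, and some were near 0 in every library. The list summed to 268, 268 and 390 TMM CPM in T1234, T1334 and T2334 and to 201 to 242 in the others. Rgs13, a regulator of G protein signalling, was at most 0.602 TMM CPM in any library, and Il21 was listed at 0 except in T2334. Of 13 genes 9 were fitted, and Gcsam and Klhl6 were counted as higher, the latter by 3.32 (SE 0.42). Bcl6, the master regulator, overlapped, at 28.9, 74.0 and 68.9 TMM CPM against 28.3 to 63.8.

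The MHC class II and dendritic cell genes were present in every library and higher in the 3. Of 19 genes 17 were counted, with a median of 2.23 (1.62 and 12 of 19 without T2334). Cd74, the invariant chain that guards the peptide groove, was 761, 1300 and 2640 TMM CPM against 158 to 615, and H2-Aa 516, 726 and 1658 against 113 to 416. The genes that B cells add to this pathway differed more, with H2-Ob at 6.42 (SE 0.43) and H2-DMb2 at 5.82 (SE 0.49), than Cd74 at 1.75 (SE 0.41) or H2-Ab1 at 1.66 (SE 0.36). Of dendritic cell genes, Ccl22, a chemokine of mature cells, differed by 5.69 (SE 0.66), Xcr1 by 3.43 (SE 0.32) and Siglech, of plasmacytoid cells, by 2.97 (SE 0.46), while Zbtb46 and Itgax were not counted.

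Tissue macrophage genes did not follow, apart from a pair named after their values were seen. Of 17 genes 2 were counted, and the median was 0.12 (-0.14 without T2334). Csf1r, the receptor of the macrophage growth factor, was 72.7, 72.1 and 168 TMM CPM against 22.1 to 187, and C1qa 101, 80.0 and 128 against 26.4 to 163. Marco, a scavenger receptor of macrophages in node and spleen sinuses, was 17.9, 80.2 and 440 TMM CPM against 0.177 to 0.660, and Timd4, a receptor for dying cells, was 13.5, 50.5 and 206 against 0.442 to 11.4. Siglec1, another gene of node macrophages, was 17.0, 44.7 and 156 in the 3 libraries and up to 89.6 in the others.

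Of the 14 NK, cytotoxic and neutrophil genes 5 were counted as higher, Nkg7 by 3.58 (SE 0.38) and Klrd1 by 3.53 (SE 0.42). Of 16 lymphocyte transcription factors 7 were counted. Ets1, which lymphocytes share with endothelium, was 145, 273 and 658 TMM CPM against 52.6 to 81.3. Ikzf3, Ikzf1, Pou2f2 and Runx3, named after their values were seen, differed by 5.34, 4.02, 4.32 and 3.45. Ebf1, a B lineage factor that fat precursors also express, overlapped, at 50.5, 70.8 and 94.8 against 57.7 to 84.6.

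Among genes in no list, the 15 with the largest positive difference and a mean of at least 5 TMM CPM lay between 5.92 and 7.32. They included receptors and signalling genes of lymphocytes, such as Fcrl1, an Fc receptor-like protein of B cells, at 13.8, 41.1 and 113 TMM CPM against 0.146 to 0.66, and Btla, an inhibitory receptor, at 39.1, 93.1 and 293 against 0.706 to 1.84. Ptprcap, a partner of CD45, differed by 5.92 (SE 0.45), H2-Eb2, a class II chain, by 7.28 (SE 0.60), and Iglc3, a lambda chain with close copies, by 7.23 (SE 0.67). Il22ra2, a soluble binder of interleukin 22, was 5.47, 7.77 and 52.7 against 0 to 0.283. The remaining members were Nsg2, Treml2, Il9r, St8sia1, Apol7c, Cacna1i, Gpr18, Gpr174 and Jakmip1.

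The 3 Ighd-high libraries differed among themselves in 1 order for nearly all lymphocyte genes, lowest in T1234 and highest in T2334. Over the 27 B cell genes the median ratio of TMM CPM was 2.52 for T1334 to T1234 (range 1.68 to 3.38) and 6.88 for T2334 to T1234 (4.57 to 9.33). Over the 31 T cell genes without overlap it was 2.21 (1.06 to 2.88) and 5.09 (1.67 to 7.52), and over 17 class II genes 2.003 and 3.78. The 16 homing genes without overlap were more spread, with medians of 1.84 and 3.10 and ranges of 0.94 to 3.44 and 1.62 to 8.24. The B cell list counted 1.54, 1.90 and 2.32 reads per read of the T cell list in T1234, T1334 and T2334. Ighd was among the 27 B cell genes in these reads and in the ratios above.

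Single genes lay outside the range of the B cell genes on both sides. For T2334 to T1234 Glycam1 had a smaller ratio, 2.48, and Marco a larger one, 24.6. Their ratios for T1334 to T1234 were 1.88 and 4.49. Timd4 had ratios of 3.74 and 15.2. Cxcl13 (2.40 and 8.24) stayed within the range of the B cell genes. These are ratios of single libraries, with no replicate behind them.

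**Figure D3:**
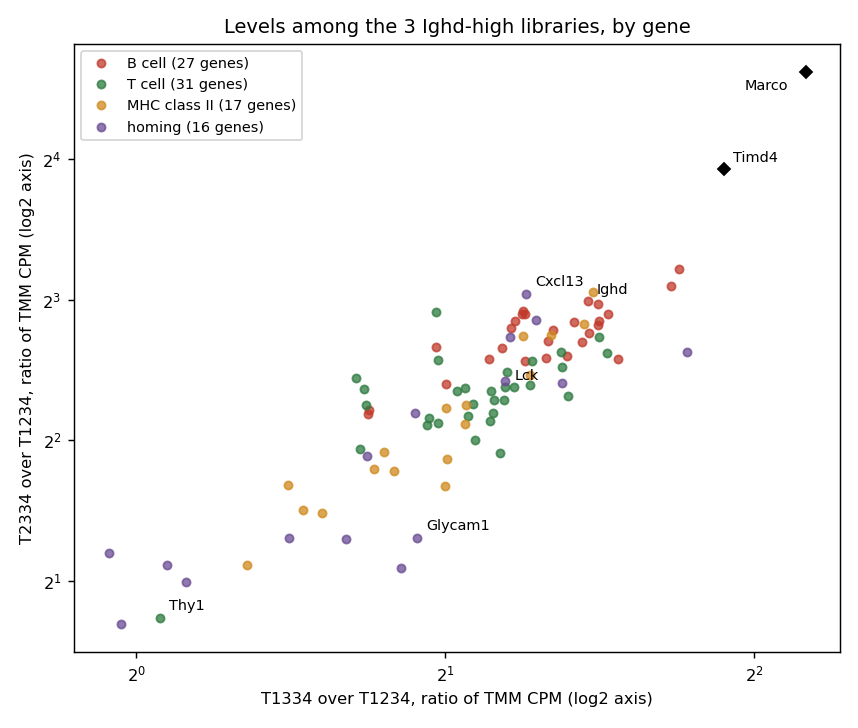
Ratio of TMM CPM of T1334 to T1234 (x axis) and of T2334 to T1234 (y axis), both on log2 axes, for each gene without overlap of 4 lists, with Marco and Timd4 as black diamonds. The B cell genes lie from 1.68 to 3.38 on the x axis and from 4.57 to 9.33 on the y axis, Glycam1 lies below them, and Marco and Timd4 lie above.

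Genes of the gland and fat pad were not lower in a uniform way. None of 28 white adipocyte genes was counted, with a median of -0.48 (-0.16 without T2334). Adipoq, the adipocyte hormone adiponectin, was 1652, 1120 and 1022 TMM CPM in T1234, T1334 and T2334 against 1334.2 to 2057, so the groups overlapped through T1234. Scd1, a desaturase of fat synthesis, was 34860, 42103 and 13963 against 28536 to 57283. Of 14 brown fat genes none was counted, with a median of 0.20, and the summed level of 280 to 1563 lay inside the 135 to 2117 of the Ighd-low libraries.

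Epithelial genes separated T1234 from the other pair. Krt8, the luminal keratin, was 355 TMM CPM in T1234, above every other library, but 64.2 in T1334 and 54.2 in T2334, below the lowest Ighd-low value of 152. Epcam was 356, 76.9 and 44.2 against 99.3 to 288. Of 20 luminal genes none was counted, with a median of -0.71 (-0.10 without T2334), and of 15 basal genes 1, Sparcl1, was counted as lower, with a median of -1.28 (-0.81 and 0 counted without T2334). Krt14, the basal keratin, was 117, 28.6 and 8.30 against 42.4 to 155.

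Skeletal muscle set T2334 apart. Acta1, the muscle actin, was 1650, 11497 and 212 TMM CPM in T1234, T1334 and T2334 against 4826 to 14634, and Ckm, the muscle creatine kinase, 732, 3906 and 62.5 against 1769 to 5096. T1334 was within the range of the Ighd-low libraries, T1234 below it and T2334 far below. Muscle genes took 1.24%, 6.09% and 0.121% of the counted reads against 2.99% to 7.39%. Their median difference was -1.14 with all libraries and -0.02 without T2334.

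Fibroblast and collagen genes were lower in T1334 and T2334 than in T1234, with a summed level of 10857 TMM CPM in T1234, 3700 in T1334 and 1610 in T2334 against 1964 to 13769. Col3a1, the chain of reticular collagen, was 2922, 830 and 228 TMM CPM against 356 to 4366, where the lowest Ighd-low library was T2314. Of 20 genes 1, Thy1, was counted, and as higher (0 without T2334). In the smooth muscle and pericyte list the summed level was 1329, 2122 and 478 against 2439 to 2948, the only list whose sum lay below all 7 libraries in each of the 3 apart from that of Schwann cells, at 348 to 399 against 422 to 699.

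Glycam1 is also a gene of milk secretion, and the other milk genes did not go with it. Csn2, beta casein, was 0.558, 1.36 and 0.301 TMM CPM in T1234, T1334 and T2334, and up to 8.77 in the Ighd-low library T1224. Wap was listed at 0 in all but T1334, with 0.0755, and Lalba was at most 0.177. Csn3, kappa casein, was 67.9, 13.9 and 8.60 against 29.1 to 68.9, in the order of the epithelial keratins.

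**Figure D4:**
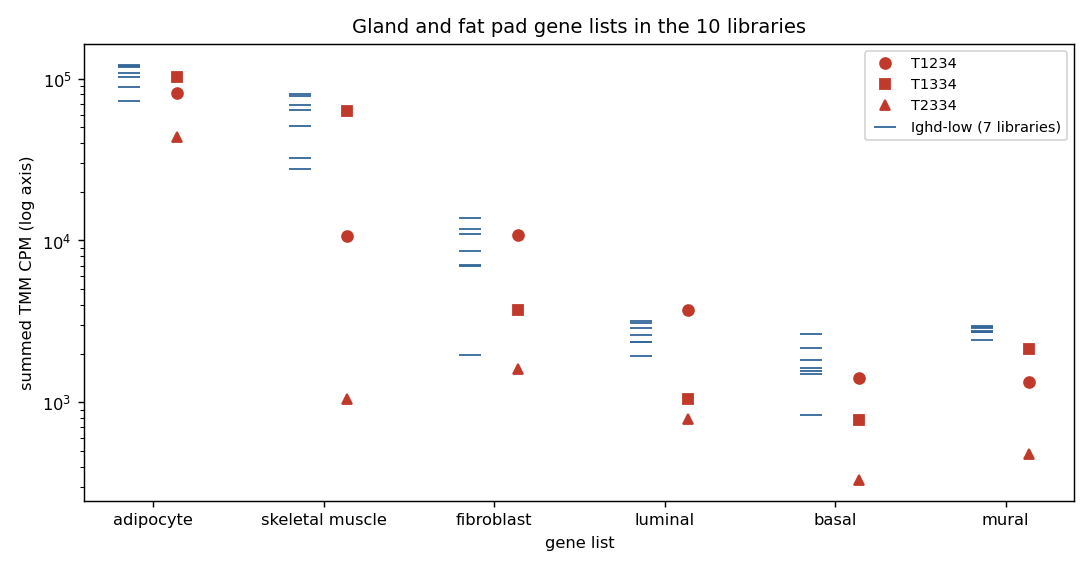
Summed TMM CPM, on a log axis, of 6 gland and fat pad lists in the 3 Ighd-high libraries (red symbols) and the 7 Ighd-low libraries (blue bars). T2334 is the lowest library in every list shown, and T1234 is the highest for luminal genes. T1334 is within the others for adipocyte, skeletal muscle and fibroblast genes.

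Cell cycle genes overlapped between the classes. Of 30 G2/M genes fitted 0 and of 30 S phase genes fitted 1, Cdt1, were counted, with medians of 0.56 and 0.41 (-0.65 and -0.17 without T2334, with 0 counted in either list). Mki67, the proliferation antigen, was 58.6, 28.4 and 68.8 TMM CPM against 4.06 to 114, and all 3 values lay inside that range. The range spans the diets, with Ighd-low CFA libraries at 40.5 to 114 and HFA libraries at 4.06 to 17.0, so T2334 was above every other HFA library.

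The 127 genes that were lower took 0.109% to 0.294% of the counted reads in the Ighd-high and 0.358% to 0.542% in the Ighd-low libraries. The 15 largest lay between -1.42 and -1.93. Abcc8, a subunit of the potassium channel that senses ATP, was 6.25, 4.38 and 0.842 TMM CPM against 7.37 to 18.7, and Aldh1a1, a retinal dehydrogenase, 60.4, 76.8 and 10.1 against 88.1 to 215. Fgf1, a growth factor of fat, was 28.4, 22.6 and 7.88 against 36.2 to 57.2. Foxi1, the factor of epithelial ionocytes, was 6.48, 3.47 and 5.17 against 6.56 to 18.9. The rest were Prkg1, Drp2, Ahnak2, Apod, Fhod3, Pgm5, Gpnmb, Itgbl1, Wnt9a, Sgms2 and Aebp1.

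The number of lower genes turned on single libraries. Without T1234 there were 1098, which held 125 of the 127, and without T1334 there were 1001, which held 120. Without T2334 there were 47, which held 37. Within the CFA libraries alone, T1234 and T1334 against 3 others, 217 were lower, of which 31 were among the 127. In the same comparison 878 genes were higher, of which 781 were among the 1187. Without scaling, where the median difference of all genes was 0.12 in place of -0.05, 57 genes were lower and 1437 higher.

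**Figure D5:**
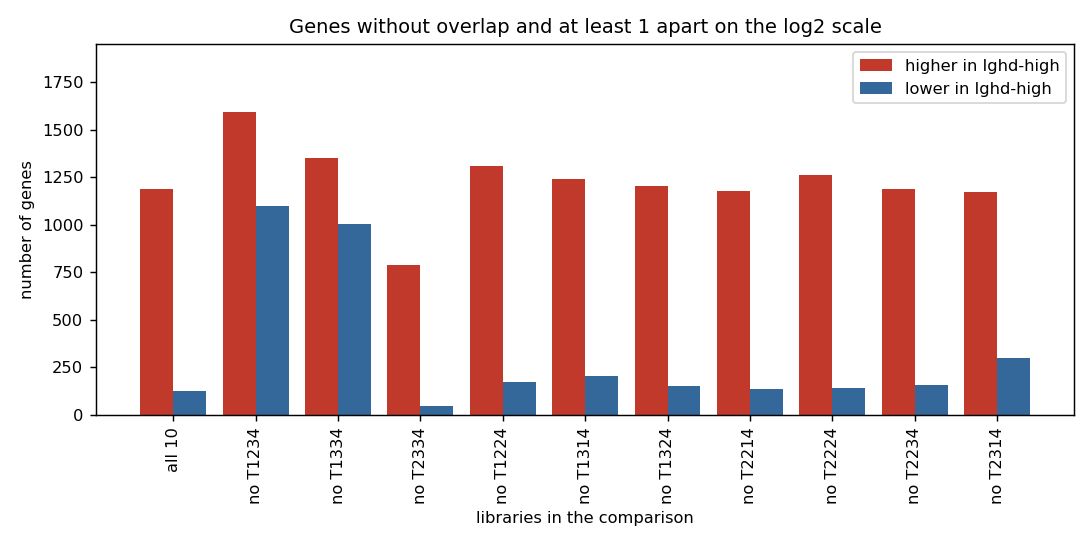
Number of genes higher (red) and lower (blue) in the Ighd-high libraries with all 10 libraries and with each left out in turn. The red bars stay between 788 and 1590, while the blue bars run from 47 without T2334 to 1098 without T1234.

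The diets, which come from the labels, were compared with the class of the library as a term. By edgeR's quasi-likelihood test 0 of 16952 genes (0%) passed an adjusted p of 0.05, with the smallest at 0.17 and 2024 genes at an unadjusted p below 0.05. By DESeq2 342 genes passed, 80 higher and 262 lower in HFA, by the likelihood ratio test 299, and by limma voom 0. The common biological coefficient of variation was 0.309 with class and diet in the fit and 0.453 with diet alone. Both values used the genes filtered with the class in the design, some of which passed through the Ighd-high libraries alone. Since the class was cut from these same counts, a lower value with it was built in and supports nothing.

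With the class as a term 26 of 27 B cell genes had a positive HFA minus CFA difference (median 0.88 on the log2 scale), and 0 passed (10 at an unadjusted p below 0.05, smallest adjusted p 0.248, edgeR). T2334 was the only HFA library among the 3 and the highest of them in these genes, and 13 of the 27 could not be fitted without the Ighd-high libraries, so this tally of signs supports nothing about diet.

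In the Ighd-low libraries alone (3 CFA, 4 HFA), 469 of 15759 genes passed, 2.98%, 185 higher and 284 lower in HFA. Of the 14 B cell genes fitted there 6 had a positive difference, the median was -0.05, and 0 passed (1 at an unadjusted p below 0.05, edgeR). Of 23 T cell genes 16 had a negative difference, with a median of -0.52, and 2 passed. Of 18 homing genes 11 had a negative difference, with a median of -0.26, and 1 passed. The cell cycle lists held more of the calls: all 30 G2/M genes had a negative difference, with a median of -2.14, and 16 passed, and 29 of 30 S phase genes did, with a median of -0.86, and 12 passed. With all libraries and the class as a term, the 30 G2/M genes had a median of -1.32 and 0 passed, 19 at an unadjusted p below 0.05.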

How the data were processed

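RNA of the right thoracic mammary fat pad was measured in 10 mice, 1 library per mouse, with diets taken from the sample labels. The authors prepared libraries with the TruSeq RNA kit v2, aligned the reads to GRCm38 with TopHat2 2.0.14 and Bowtie2 2.2.5, and deposited raw counts of reads per Ensembl gene from HTSeq 0.6.1, with no normalization. The files hold 46983 genes, 46488 of which matched a symbol in GENCODE M21, and 5 summary lines that were kept out of library sizes. Reads that overlap more than 1 gene or align more than once are not in the counts. The authors' model held cage, which the labels do not give.

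Libraries with a raw Ighd CPM above 50 formed one class. Counts were filtered by filterByExpr, scaled by TMM and fitted with edgeR 4.0.16 (R 4.3.3) with diet and class as terms. The contrast of classes is a description. Diet was tested by the quasi-likelihood test with Benjamini-Hochberg adjustment at 0.05. Library measures were compared by exact permutation tests. The mice are separate animals, so errors include the spread between mice. Depth was 7672199 to 14829291 reads on genes per library, and the counts carry no molecular identifiers. The self-test ran on simulated counts.

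The libraries, the 21 gene lists and the rules for naming genes were chosen with earlier results of these data known. Named were Ighd, Lck, Glycam1, members of the B cell, T cell, homing, germinal centre, plasma cell and class II lists, the fixed cell type markers, the 3 most abundant members of each other list, and the 15 largest differences each way outside the lists at a mean of at least 5 TMM CPM. Genes named outside that rule are Marco, Timd4, Siglec1, Ikzf1, Ikzf3, Pou2f2, Runx3, Gata3, Csn2, Csn3, Wap, Lalba and Cdt1, chosen after their values were seen. Alternatives were RLE, upper-quartile and no scaling, the table unfiltered, a floor of 1 CPM that 5 libraries had to pass, no diet term, DESeq2 1.42.0, limma voom (limma 3.58.1), CFA libraries only, other limits of Ighd and of the minimum difference, the likelihood ratio test, and each library left out. Promoter windows are from RefSeq on GRCm38.p6. Some members of the lists are not reported here by name.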

Additional observations from a re-analysis of the deposited data

Results flagged for a closer look

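Among the 7 Ighd-low libraries, 134 levels (the list sums and the named genes with a mean of at least 5 TMM CPM there) were examined for a library apart from the rest by Dixon's criterion, and 9 were found, where chance gives about 1 in 20. T2224 had the highest sum of the Schwann cell list, 699.2 TMM CPM against a median of 489, and the highest Mbp, 158.4 against a median of 86.7. The same library was highest in Cd37, a tetraspanin of B cells, at 17.0 against a median of 6.38, and lowest in Gata3, at 40.2 against 73.3. T1324 had an Igha level of 41.1 against a median of 8.80. T2314 had the lowest Cd74, 158.3 against a median of 475. Low single values were also those of Zbtb46 in T2234, 11.35, of Pmp22 in T1224, 137.1, and of Foxi1 in T1314, 6.558.

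In 2 of the 134 levels the Ighd-high libraries stood on opposite sides of the Ighd-low libraries in the 2 diets, which was not tested. Rrm1, a subunit of ribonucleotide reductase, was 45.0 and 41.1 TMM CPM in T1234 and T1334, below the CFA libraries at 47.1 to 65.1, but 52.5 in T2334, above the HFA libraries at 34.5 to 43.0. Top2a, a topoisomerase of dividing cells, was 42.5 and 19.6, below the CFA libraries at 42.8 to 75.3, but 53.7 in T2334, above the HFA libraries at 2.91 to 16.0.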

How the results depend on the processing

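No library lay between 1.77 and 124 raw CPM of Ighd, so limits of 10 or 100 CPM could not change the 3 libraries. The widest gaps of Lck or Glycam1 gave the same 3. The count of higher genes was 2041 with no minimum difference, 763 with a minimum of 2 on the log2 scale, 790 with CPM above 1 in at least 5 libraries, and 788 to 1590 with a library left out. The count of lower genes was 615 and 9 with those minimum differences, 57 without scaling, 217 in the CFA libraries alone, and 47 to 1098 with a library left out. The median difference of the B cell list was 4.49 with the CPM filter, which kept 13 of its genes, 6.73 by DESeq2, 5.42 in the CFA libraries alone and 5.42 to 7.03 with a library left out. That of the T cell list was 4.92 with the CPM filter, above the B cell list, 4.30 in the CFA libraries alone and 4.30 to 5.53 with a library left out. That of the homing list was 2.43 with the CPM filter, 2.08 in the CFA libraries alone and 2.07 to 3.26 with a library left out. The count of genes between diets was 3 with the mean of the B and T cell lists in place of the class, 299 by the likelihood ratio test, 342 by DESeq2, 7 with no filter, 469 in the Ighd-low libraries alone and 0 to 3 with a library left out. The cause of these moves was not tested, except that fewer libraries or genes enter the filters and left-out comparisons. No paired analysis was possible because the replicate numbers only name the samples.

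With 3 libraries in a class that a measured gene defined, the class differences hold no test, and genes under about 1 TMM CPM in the Ighd-low libraries rest on few reads. T2334 carried the highest level of nearly all lymphocyte genes and the lowest of muscle genes, so its values weigh on each mean difference.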
